A study of Homo sapiens with 4 samples.

Results

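PTMA encodes prothymosin alpha and PTMS encodes its paralogue parathymosin, both small, strongly acidic proteins without a stable fold. Prothymosin alpha is abundant in dividing cells, binds linker histones in the nucleus, is known to hold back assembly of the apoptosome, binds KEAP1, the adaptor that directs the transcription factor NRF2 to degradation, and is a known MYC-responsive gene. The last step in making their mRNAs is cleavage and addition of a poly(A) tail, which follows a polyadenylation signal, most often AATAAA in DNA letters. A gene can be cut at several sites, and alternative polyadenylation is a change in which of them is used.

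The 2 genes were followed in polyadenylation site sequencing (PAS-seq), which reads the 3′ ends of polyadenylated RNA, of 2 lines of esophageal cancer cells, KYSE30 and TE-1. The question of the design is whether l-lactate affects alternative polyadenylation. There were 4 libraries, 1 for each combination of line and treatment: KYSE30 with l-lactate, KYSE30 control, TE-1 with l-lactate and TE-1 control, where the controls received PBS and a legend of the study gives 20 mM l-lactate for 24 h (its PAS-seq methods state neither dose nor time). The titles of both controls name K30 and TE1, while their cell line fields read KYSE32 and TE-3; they are called KYSE30 and TE-1 controls here after the titles. With 1 library in each group there is no replicate check, and a change of a line with treatment cannot be told apart from a difference between the cultures or libraries.

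Neighbouring sites are grouped in polyadenylation site clusters (PACs), each with a level, a dominant site (the position with the most tags) and the positions between which the tags from 10% to 90% lie. A PAC was given to a gene when its dominant site lay in the gene's span on the same strand in GENCODE 44. This gave 2 PACs for the 2 genes, of 17627 PACs in the series and 12067 genes with a PAC. PTMA and PTMS each had 1 PAC, listed in all 4 libraries and holding 100% of the gene's tags, so neither gene had a proximal and a distal PAC to compare. The study joined PACs above a set level that lay within 500 nt of each other, so proximal and distal sites that near would share 1 PAC. Alternative use of sites could be seen only inside each PAC.

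Levels are in RPM, the tags in the PAC for every 1000000 tags of the library. They are not divided by transcript length, because each RNA gives its tag at the 3′ end. The libraries held 7174991 to 10393799 tags, and between 92.5% and 93.1% of them lay in listed PACs. The rank correlation of PAC levels over 12344 PACs was 0.985 between the libraries of KYSE30, 0.985 between those of TE-1 and 0.808 to 0.819 between lines. Of 8 squamous epithelial markers 5 reached a mean of 5 RPM, while KRT5, KRT14 and TP63 did not. EGFR was at 906 and 901 RPM in KYSE30 and 140 and 126 RPM in TE-1. SOX2 and KRT6A were listed only in KYSE30, KRT17 was listed only in TE-1, and CDH1 was listed at 228 and 204 RPM in KYSE30 but at 1.30 RPM and 0 in TE-1. None of 5 fibroblast and 4 leukocyte markers reached that mean.

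The 30 bases that end at each dominant site are shown because the position of the cut inside the PAC differed between libraries for PTMA and not for PTMS. They are from the plus strand of GRCh38, with AATAAA in capitals.
PTMA with l-lactate, chr2:231713494-231713523: tgtccaacAATAAAcaggaattttattttg
PTMA in control, chr2:231713508-231713537: caggaattttattttgctgagttgttctaa
PTMS in every library, chr12:6770922-6770951: AATAAAgaaatggtcgcgcttctgttttta

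PTMA (ENSG00000187514.17) lies at chr2:231706895-231713551 on the plus strand. Both of its dominant sites are in exon 5, in the 3′ UTR of the MANE Select transcript PTMA-202, 672 and 686 nt past the stop codon and 28 and 14 nt before the annotated end. The site used most in the controls, at 231713537, is 1 base past the annotated end of the shorter transcript PTMA-201 at 231713536. The miRNA gene MIR1244-1, at chr2:231713314-231713398, lies in the same 3′ UTR and strand. PTMS (ENSG00000159335.19) lies at chr12:6765516-6770952 on the plus strand, and its dominant site is in exon 5, in the 3′ UTR of the MANE Select transcript PTMS-201, 509 nt past the stop codon and 1 nt before the annotated end.

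In the 50 bases before each site of PTMA, the AATAAA nearest to the site was the same, at chr2:231713502-231713507. The site with l-lactate followed it after 16 bases, which is the median over the 11699 PACs with AATAAA in that window. The site in control followed it after 30 bases, and 98.1% of those PACs had a gap of at most that length. In PTMS the gap was 24 bases, and 94.6% of PACs had at most that gap. AATAAA was present in the 50 bases before the site in 66.4% of 17621 PACs and the variant ATTAAA in 19.8%, with the strand of the PAC searched. ATTAAA was in neither gene's window. TGTA, letters of the sequence bound by cleavage factor I, occurred at 1 place in the 100 bases before the sites of PTMA and at 1 place before that of PTMS, and was present in 57.0% of PACs.

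PTMA was high in both lines and higher with l-lactate in both. Its level was 335 RPM (95% exact Poisson interval 322 to 349, 2407 tags) in KYSE30 with l-lactate and 218 RPM (208 to 229, 1620 tags) in KYSE30 control. In TE-1 it was 467 RPM (453 to 482, 3957 tags) with l-lactate and 228 RPM (219 to 237, 2369 tags) in control. The intervals of the l-lactate libraries overlapped with no other interval, while those of the controls overlapped. All Poisson and binomial intervals here cover counting error only, since each group has 1 library. The sources used here do not say that copies made by PCR were collapsed. If they were not, the intervals are too narrow even for counting error. From the highest, the order was TE-1 with l-lactate, KYSE30 with l-lactate, TE-1 control and KYSE30 control. By level PTMA stood at rank 313, 450, 723 and 735 in those libraries among 9796 genes of mean 5 RPM or more.

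The fold of PTMA, l-lactate over control, was 1.54 in KYSE30 (1.44 to 1.64, conditional binomial interval, log2 0.62) and 2.05 in TE-1 (1.95 to 2.16, log2 1.04). PTMA was chosen for its rise in both lines, so these folds are a description with no test. The median log2 fold of all genes was 0.01 in KYSE30 and 0.04 in TE-1. Genes higher by 1.5-fold or more made up 2.57% of 9502 genes in KYSE30 and 3.36% of 9482 in TE-1, and 34 of 9188 genes (0.370%) were higher by that fold in both. PTMA had rank 211 from the highest fold in KYSE30 and rank 89 in TE-1. Among 6103 genes of mean 20 RPM or more it had rank 5 by the smaller of its 2 rises. At that level the last gene inside the 1.5-fold limit in both lines was CHASERR (log2 0.59 and 0.62), and the first outside was TNRC18 (log2 0.63 and 0.57).

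**Figure D1:**
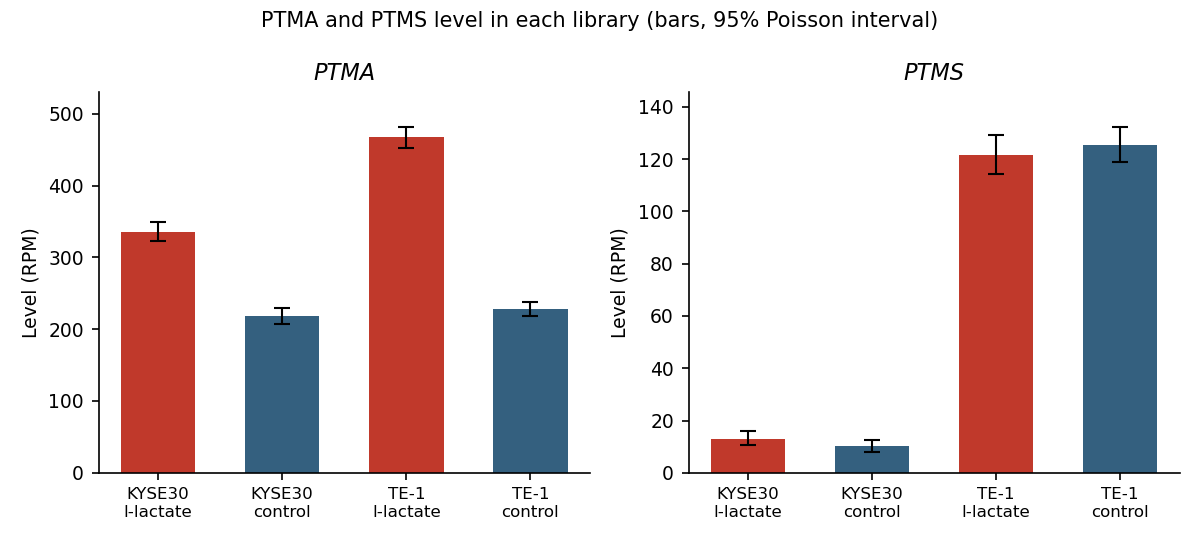
Level of PTMA (left) and PTMS (right) in RPM in each of the 4 libraries, l-lactate in red and control in blue, with error bars for the 95% exact Poisson interval. PTMA was higher with l-lactate in both lines, at 335 against 218 RPM and 467 against 228 RPM, while PTMS was at 10.1 to 13.0 RPM in KYSE30 and 122 to 125 RPM in TE-1.

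PTMS, which like PTMA binds linker histones, differed between lines far more than with treatment. Its level was 13.0 RPM (10.5 to 15.9, 93 tags) in KYSE30 with l-lactate and 10.1 RPM (7.94 to 12.7, 75 tags) in KYSE30 control. It was 122 RPM (114 to 129, 1030 tags) in TE-1 with l-lactate and 125 RPM (119 to 132, 1304 tags) in TE-1 control. Within each line the intervals overlapped, and between lines they did not. The fold with l-lactate was 1.28 in KYSE30 (0.937 to 1.76, log2 0.36) and 0.969 in TE-1 (0.892 to 1.05, log2 -0.04), and both intervals include no change. The direction was thus not the same in both lines. In KYSE30 the interval reaches from 0.937-fold to 1.76-fold, so neither no change nor a rise of that size can be set aside.

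**Figure D2:**
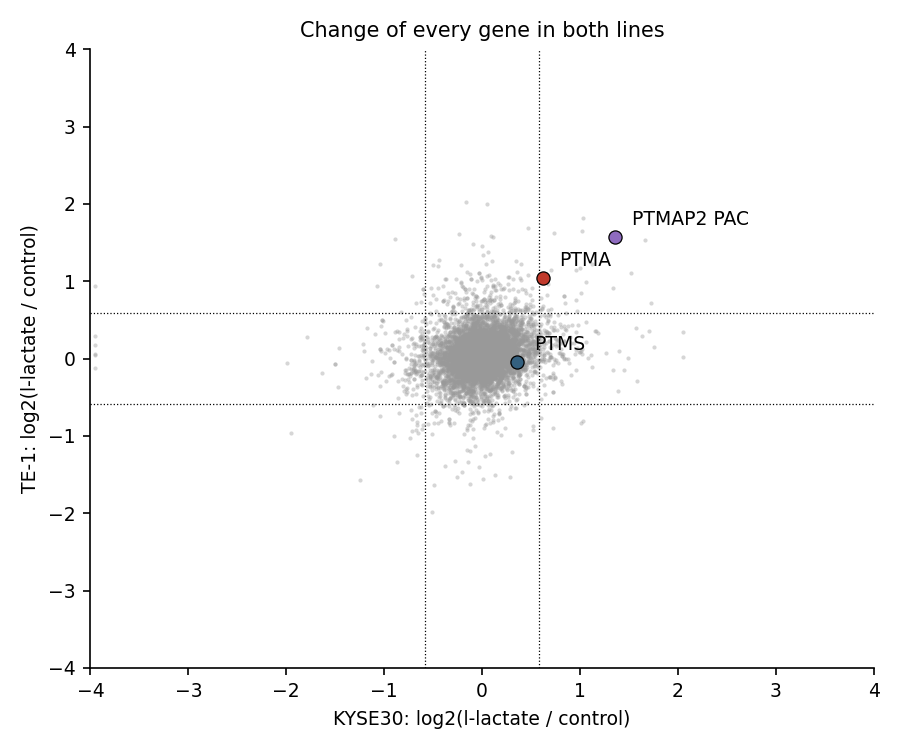
Log2 fold with l-lactate over control in KYSE30 (horizontal) against TE-1 (vertical), 1 grey point per gene of mean 5 RPM or more, with PTMA, PTMS and the PAC beside the pseudogene PTMAP2 marked and dotted lines at 1.5-fold. The plot holds 9030 genes, with 158 beyond a log2 fold of 4 in either line left out. A gene not listed in 1 library of a line was set to 0.5 tags there, so the size of its fold is not measured. PTMA lies past 1.5-fold in both lines and PTMS in neither.

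A linear model with limma over the 4 libraries, with line as covariate and on log2 of RPM plus 0.5, tested l-lactate over both lines. It left 1 residual degree of freedom for each gene, beside 7.54 prior degrees of freedom taken from the spread of all genes. Its p-values thus rest mostly on that shared spread among these 4 libraries, and not on replicates. PTMS had a log2 fold of 0.15 (SE 0.13, 95% interval -0.15 to 0.45) with limma and Benjamini-Hochberg adjusted p = 0.77. Of 9796 genes 0 were called (0%), and 972 had an unadjusted p of 0.05 or less. Other settings of the limma fit called 0 to 52 genes, the most when genes below a mean of 20 RPM were left out, and none of them called PTMS (adjusted p 0.723 to 0.836). PTMA is not given for this contrast, because it was chosen on it.

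The same fit tested TE-1 against KYSE30 with treatment as covariate, a contrast on which neither gene was chosen. The 2 libraries of a line differ by treatment and are not replicates, and the same borrowed spread enters these p-values. There 7148 of 9796 genes (73.0%) were called, with 36.3% of all genes higher in TE-1 and 36.6% lower. PTMS was higher in TE-1 by a log2 fold of 3.38 (SE 0.13, 10.4-fold), with an adjusted p of 5.15e-08 by limma, and was called under every setting of the fit. TE-1 over KYSE30 was 9.38-fold (7.58 to 11.7) with l-lactate and 12.4-fold (9.84 to 15.9) in control. PTMA was higher in TE-1 by a log2 fold of 0.27 (SE 0.10, 1.21-fold), with an adjusted p of 0.0294 by limma. That call was lost with no minimum level (adjusted p = 0.105), with no trend of the spread on the level (0.174) and with a pseudocount of 0.1 RPM (0.0503). Over the other settings the adjusted p lay between 0.00546 and 0.0298. TE-1 over KYSE30 was 1.39-fold (1.32 to 1.47) for PTMA with l-lactate and 1.04-fold (0.980 to 1.11) in control, where the interval includes no difference. The level of PTMA was 25.9 times that of PTMS in KYSE30 with l-lactate and 21.6 times in its control, but 3.84 and 1.82 times in TE-1.

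Inside the PAC of PTMA the most used position moved in the same way in both lines. The PAC spans chr2:231712850-231713557, 708 nt, but the positions from 10% to 90% of its tags lay within 20 to 24 nt in every library. The dominant site was 231713523 in both l-lactate libraries and 231713537 in both controls, 14 nt apart, with the site with l-lactate nearer to the AATAAA. It held 22.1% of the PAC's tags (95% Clopper-Pearson interval 20.4 to 23.8, 531 tags) in KYSE30 with l-lactate, and the other site held 14.7% (13.0 to 16.5, 238 tags) in KYSE30 control. In TE-1 the shares were 24.6% (23.3 to 26.0, 974 tags) with l-lactate and 13.0% (11.7 to 14.4, 308 tags) in control. The share of the dominant site was higher with l-lactate by 7.37 points in KYSE30 and 11.6 points in TE-1, and the intervals did not overlap within a line.

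**Figure D3:**
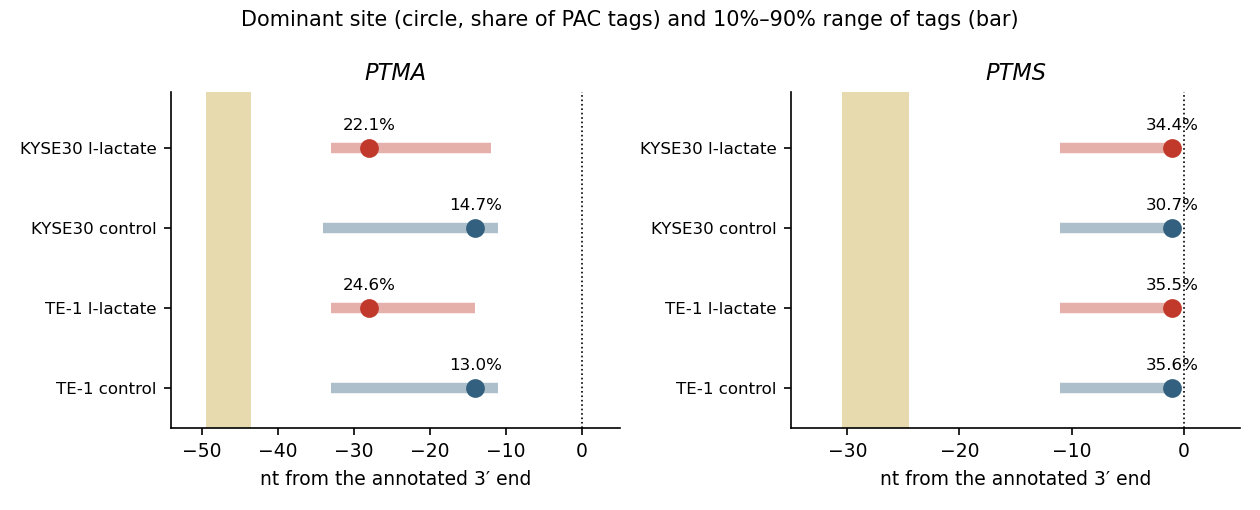
Position of the dominant site (circle, with its share of the PAC's tags) and the range from 10% to 90% of tags (bar) for PTMA (left) and PTMS (right) in each library, in nt from the annotated 3′ end of the MANE Select transcript at 0; the shaded band is AATAAA. The PTMA site lies at 28 nt before the end with l-lactate and 14 nt before it in control in both lines, while the PTMS site lies 1 nt before it in every library.

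The ends of the range moved less than the dominant site. The 10% position was 231713518 with l-lactate and 231713517 in control in KYSE30, and 231713518 in both libraries of TE-1. The 90% position was 231713539 with l-lactate and 231713540 in control in KYSE30, and 231713537 and 231713540 in TE-1. The tags of PTMA thus came from nearly the same stretch with both treatments, and the most used position in that stretch differed.

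A part of the rise lay at the position 231713523 itself. Its level was 74.0 RPM in KYSE30 with l-lactate and 115 RPM in TE-1 with l-lactate. The tables give only the dominant site of a PAC, but no site can hold more tags than the dominant one, so in control this position had at most 32.1 RPM in KYSE30 and 29.6 RPM in TE-1. It rose at least 2.31-fold (1.98 to 2.70) in KYSE30 and at least 3.88-fold (3.41 to 4.43) in TE-1, bounds set by those tags. The rest of the PAC rose by between 1.20-fold and 1.40-fold in KYSE30 and between 1.55-fold and 1.78-fold in TE-1. At least 35.8% of the PAC's rise of 117 RPM in KYSE30 and at least 35.7% of its rise of 239 RPM in TE-1 lay at that 1 position. These values come from the contrast on which PTMA was chosen and are given with no test. The bounds take the listed dominant level as it stands. In 16 to 19 PACs of each library that level was above the level of the whole PAC, which was not so for PTMA in any library.

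**Figure D4:**
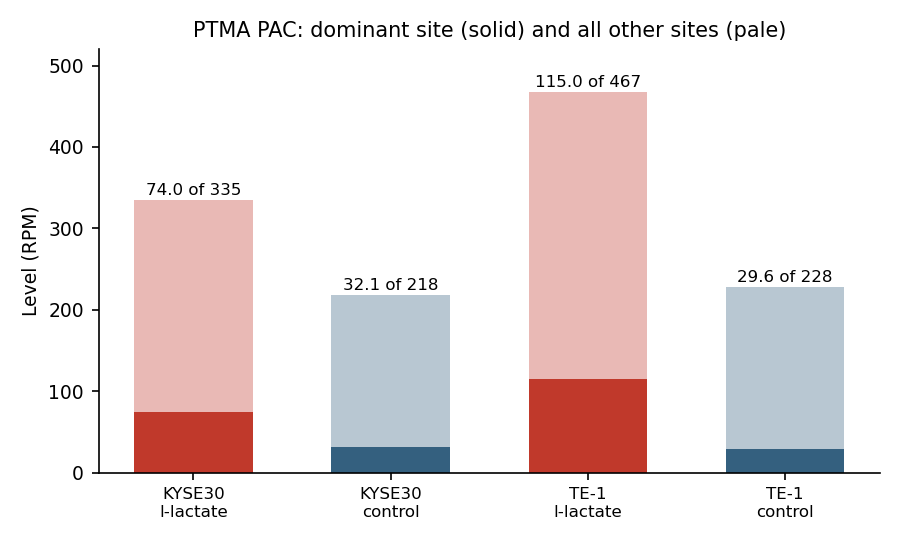
Level of the PTMA PAC in RPM in each library, split into the dominant site of that library (solid) and all other sites (pale), l-lactate in red and control in blue. The dominant site held 74.0 of 335 RPM and 115 of 467 RPM with l-lactate, and 32.1 of 218 RPM and 29.6 of 228 RPM in control.

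Among 10738 PACs listed in all libraries with a mean of 5 RPM or more, 9530 (88.8%) had the same dominant site in all 4. The dominant site differed between l-lactate and control in 601 PACs (5.60%) in KYSE30 and in 567 (5.28%) in TE-1. A pattern like that of PTMA, with 1 site in both l-lactate libraries and another in both controls, was found in 69 PACs (0.643%), of which 28 moved upstream and 41 downstream. By comparison 235 PACs (2.19%) had 1 site in KYSE30 and another in TE-1 with both treatments. The dominant share rose by at least as much as in PTMA in both lines in 46 PACs (0.428%). The 69 and the 46 PACs include that of PTMA. PACs were not matched by level, and many of the 69 had far fewer tags than PTMA. In a PAC with few tags the most used position can change by a few tags.

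The PAC of PTMS had 1 dominant site in all libraries. It spans chr12:6770940-6770952, 13 nt, the dominant site was 6770951 in all 4 libraries, and the 10% and 90% positions were 6770941 and 6770951 in all 4. The dominant site held 34.4% of tags (24.9 to 45.0) in KYSE30 with l-lactate and 30.7% (20.5 to 42.4) in KYSE30 control. In TE-1 it held 35.5% (32.6 to 38.5) with l-lactate and 35.6% (33.0 to 38.2) in control. All 4 intervals overlapped, and those of KYSE30 rest on 93 and 75 tags.

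The end of PTMA has copies elsewhere in the genome, as processed copies of this mRNA have been inserted in it many times. The 30 bases that end at 231713523 were found unchanged at 7 other places, near the pseudogenes PTMAP2, PTMAP4, PTMAP5, PTMAP9, PTMAP11, PTMAP12 and 1 place near none of them. The 30 bases that end at 231713537 were found at 2 other places, near PTMAP2 and PTMAP5, and those of PTMS at none. Of 12 annotated pseudogenes 0 had a PAC in their span and 1, PTMAP2, had one within 5 kb past its end. Around that site PTMA and PTMAP2 are identical over 122 bases, 104 up to the site and 18 after it.
PTMAP2, chr5:118974765-118974794: tgtccaacAATAAAcaggaattttattttg

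The PAC beside PTMAP2 lies at chr5:118974789-118974798, 667 nt past the annotated end of the pseudogene. It was higher with l-lactate in both lines, like the PAC of PTMA. The copy of the PTMA site 231713537, at 118974808, lies outside it. Its level thus covers only a stretch around the copy of 231713523, while that of PTMA covers its whole PAC. Its level was 9.34 RPM (67 tags) in KYSE30 with l-lactate and 3.64 RPM (27 tags) in control, and 11.7 RPM (99 tags) in TE-1 with l-lactate and 3.95 RPM (41 tags) in control. Its fold with l-lactate was 2.57 in KYSE30 (1.62 to 4.18) and 2.96 in TE-1 (2.04 to 4.38). It held 2.78% and 2.50% as many tags as PTMA with l-lactate and 1.67% and 1.73% as many in control. Its dominant site, at 118974794, is the copy of the PTMA site 231713523, except in KYSE30 control, where it was 118974789. How the aligner placed reads that match several places is not given in the sources used here, and its part in the levels of either PAC was not tested. The 20 bases after 118974794 held 8 A, a count reached by 9.43% of PACs, against 6 A after the PTMA site 231713523. The copy also has a run of 11 A where the shared stretch ends. Whether tags of the PTMAP2 PAC arose at A in the genome was not tested.

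Genes with the profile nearest to each member were found by the distance of their log2 RPM, centred on its mean, over the 4 libraries, among 6290 genes of mean 20 RPM or more. For PTMA these included CHASERR (distance 0.30), a long non-coding RNA gene, CPSF6 (0.34), RIOX2 (0.40) and LSM8 (0.44). CPSF6, which encodes a subunit of the cleavage factor I complex that takes part in choosing polyadenylation sites, was at 178 and 140 RPM in KYSE30 and 283 and 168 RPM in TE-1, with l-lactate first. Its log2 fold with l-lactate was 0.34 in KYSE30 and 0.75 in TE-1, against 0.62 and 1.04 for PTMA. For PTMS the nearest were TCEAL8 (0.11), PARD3 (0.17), FARP1 (0.18), TTL (0.22) and FBLN1 (0.23), all of them higher in both TE-1 libraries than in both KYSE30 libraries. With 4 libraries of 2 lines and 2 treatments many genes can have a near profile, and these distances are a description.

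**Figure D5:**
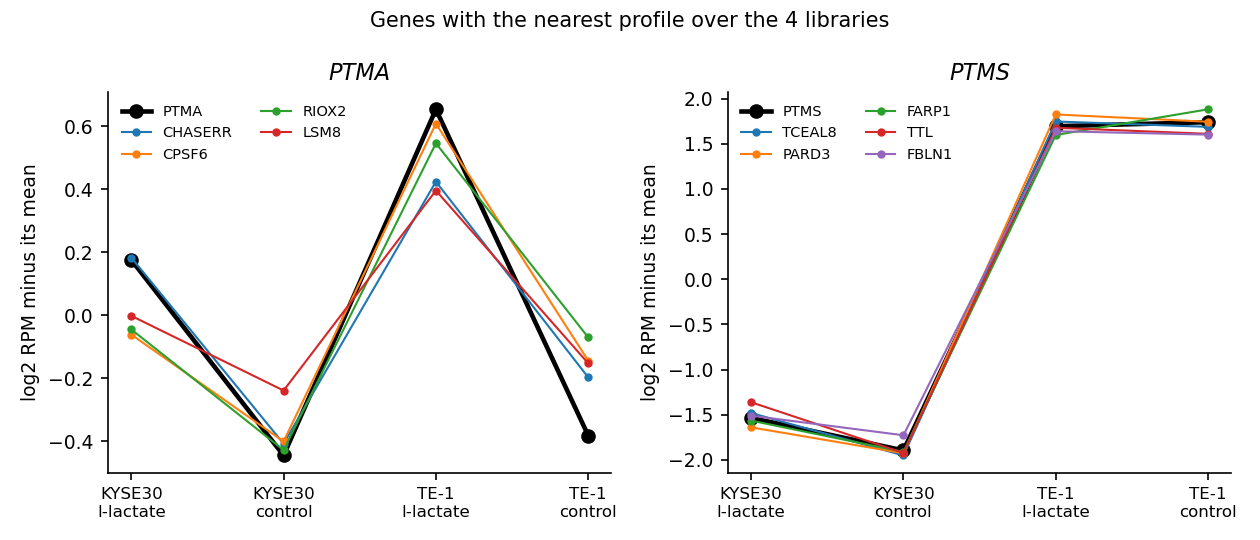
Log2 RPM minus its mean over the 4 libraries (vertical) in each library (horizontal) for PTMA (left, black) and PTMS (right, black) and genes among the 5 nearest to each in colour. The 4 genes drawn near PTMA are higher with l-lactate in both lines, and the 5 near PTMS are higher in TE-1.

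Genes of the pathways in which prothymosin alpha takes part were counted by the same 1.5-fold rule, beside which 2.57% of all genes were higher and 2.78% lower in KYSE30, and 3.36% higher and 1.95% lower in TE-1. Among acidic histone chaperones, which like prothymosin alpha carry histones, 18 of 18 were measured and 0 passed in KYSE30. In TE-1 1 was higher, ASF1A, at 15.9 against 10.3 RPM, and 0 were lower. The median log2 fold was -0.04 and -0.02, against 0.01 and 0.04 for all genes. SET, the most abundant of them, was at 1429 and 1457 RPM in KYSE30 and 2425 and 2389 RPM in TE-1, so its libraries of 1 line lay close together.

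Most linker histones, the nuclear partners of prothymosin alpha, are made from mRNAs without a poly(A) tail, which this assay does not read. H1-10, a linker histone gene with a PAC, was at 57.6 and 63.2 RPM in KYSE30 and at 119 and 119 RPM in TE-1, and did not pass in either line. In the apoptosome list 7 of 8 genes were measured, all but APAF1, and 0 passed. CYCS, which encodes cytochrome c, was at 460 and 343 RPM in KYSE30 and 850 and 754 RPM in TE-1, with a log2 fold of 0.42 and 0.17. For the KEAP1 and NRF2 pathway 11 of 13 were measured. There 1 was higher in KYSE30, HMOX1, the heme oxygenase that NRF2 induces, at 6.27 against 3.50 RPM, and 0 passed in TE-1. NQO1, the most abundant of them, was at 394 and 423 RPM in KYSE30 and 399 and 412 RPM in TE-1. KEAP1 itself was at 81.0 and 93.2 RPM in KYSE30 and 26.3 and 24.7 RPM in TE-1.

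Of the 5 squamous markers measured 1 was higher in KYSE30, KRT6A, at 40.4 against 20.3 RPM, and 1 in TE-1, CDH1, at 1.30 RPM against 0. That 0 means not listed in TE-1 control, where the lowest listed level was 1.058 RPM. A rise of CDH1 in TE-1 can therefore not be told from none. Their median log2 fold, over those listed in the line, was 0.27 in KYSE30 and 0.15 in TE-1.

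All 9 genes of MYC and its partners were measured and 0 passed in either line. MAX, the partner with which MYC binds DNA and the most abundant of them, was at 58.8 and 59.5 RPM in KYSE30 and 70.6 and 62.7 RPM in TE-1. MYC was at 6.97 and 5.79 RPM in KYSE30 and 26.0 and 24.1 RPM in TE-1, with a log2 fold of 0.27 and 0.11. Of 20 MYC-responsive growth genes 18 were measured, all but EIF4A1 and FBL, and 2 were higher in KYSE30 and 0 in TE-1. The 2 were TFRC, the transferrin receptor, at 449 against 245 RPM, and RRS1, a ribosome assembly factor, at 41.3 against 25.5 RPM. LDHA, the most abundant of them and the lactate dehydrogenase subunit, was at 2119 and 1739 RPM in KYSE30 and 3641 and 3532 RPM in TE-1. The median log2 fold of that list was 0.12 in KYSE30 and 0.03 in TE-1. The beta thymosins share a name but not an origin with prothymosin alpha. Of 4 genes 2 were measured and 0 passed, with TMSB4X at a log2 fold of 0.19 and 0.40. Of 7 genes for nuclear import and processing 6 were measured and 0 passed, with KPNA2 at a log2 fold of 0.02 and 0.14.

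Between lines, where 73.0% of all genes were called by limma, the lists held calls in both directions. Of 18 MYC-responsive genes 11 were higher in TE-1 and 3 lower (median log2 difference 0.62), of the 9 MYC genes 5 were higher and 1 lower (0.51), and of 18 chaperones 8 were higher and 3 lower (0.12). Of 7 apoptosome genes 3 were higher and 4 lower (-0.30), and of 11 genes of the KEAP1 and NRF2 pathway 3 were higher and 5 lower (-0.05). Of 2 beta thymosins 1 was higher and 1 lower (0.10), and of 6 genes for nuclear import and processing 3 were higher and 1 lower (0.18). Of the 5 squamous markers 1 was higher and 4 were lower (-5.87). Nothing particular to a list is read from these counts, given the share of all genes called. The median of all genes in this contrast was near 0, at a log2 of -0.0017.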

How the data were processed

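The authors deposited 1 table of PACs for each library, with the level of each PAC, its dominant site and its quantile positions. The file headers name the levels tpm. They are read here as RPM, tags for every 1000000 tags of the library, with no length correction. Per the methods of the study, reads were trimmed, aligned with HISAT2 (build GRCh38.p14 per the labels) and clustered with CAGEr. Sites below 1 TPM were dropped, sites within 24 nt were clustered, single-site PACs below 3 TPM were removed, and PACs above 5 TPM within 500 nt were joined.

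The tables were joined on the PAC, and genes were assigned from GENCODE 44. The total tags of each library were found as the number that turns every RPM value into a whole count, to within 0.1 tag, which held for 100% of values. Intervals are 95% exact Poisson, Clopper-Pearson or conditional binomial. A count model had been planned but was not run on the recovered tags. As the deposited levels are scaled values and not counts, limma 3.58.1 was used in R on log2 RPM. It had a pseudocount of 0.5 RPM, a mean of at least 5 RPM and Benjamini-Hochberg adjustment. A PAC missing from a table was taken as 0. For a fold against 0, 0.5 tags were used. The lowest listed level was 1.058 to 1.115 RPM over the libraries, so a 0 means not listed and can hide a level below that. Folds against 0 have no measured size, and they are included in the counts of genes past 1.5-fold. Sequences were read from GRCh38. Recovery of the library totals, the counting interval of a ratio, the fold calls and the limma fit were tested on simulated data. The other steps were not.

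Named genes were the members, the genes nearest to each, those beside the fold limit, pseudogenes with a PAC, and up to 3 of the most abundant genes of each list. ASF1A, HMOX1, KEAP1, MYC, TFRC, RRS1, SOX2, KRT6A and the squamous markers below the minimum were named after their values were seen. Of the 5 genes nearest to PTMA 1 is not reported here, nor are the counts of the linker histone list. The members and lists were chosen with earlier results of these data known.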

Additional observations from a re-analysis of the deposited data

Results flagged for a closer look

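The fold of PTMS with l-lactate had opposite directions in the lines, a log2 fold of 0.36 in KYSE30 and -0.045 in TE-1, each from 1 pair of libraries. The difference between these folds was not tested, and both counting intervals include no change.

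The PAC beside PTMAP2, which belongs to neither gene by the rule used, was above its control level in both lines, with a fold of 2.57 in KYSE30 and 2.96 in TE-1. It shares 122 bases with the end of PTMA, and the part of shared reads in this was not tested.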

How the results depend on the processing

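Over 9 alternatives of scaling, PACs counted and pseudocount, the log2 fold of PTMA with l-lactate lay between 0.61 and 0.64 in KYSE30 and between 1.00 and 1.05 in TE-1, and over 8 that of PTMS between 0.33 and 0.36 and between -0.08 and -0.04. Each gene has 1 PAC and no pseudogene span held one. All alternatives on which PACs are counted therefore returned the reported folds exactly, apart from the added PAC of PTMAP2. Only the scalings, the pseudocount and, for PTMA, that added PAC changed the folds. The alternatives for PAC shares and for the denominator of the dominant share could likewise not move those values. The alternatives that returned the reported values say nothing of their stability. The move of PTMA by the midpoint of the 10% and 90% positions was 0 nt in KYSE30 and -1.5 nt in TE-1, and by the 90% position -1 and -3 nt, against -14 nt for the dominant site. The adjusted p of PTMA between lines rose past 0.05 in 3 limma settings with log2 folds of 0.27: 0.105 with no minimum level, 0.174 with no trend and 0.0503 with a pseudocount of 0.1 RPM.

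Genes higher and lower with l-lactate numbered 244 and 264 in KYSE30, 319 and 185 in TE-1, and 34 and 28 in both lines. In that order they were 469, 550, 574, 415, 69 and 74 with a minimum mean of 1 RPM, 64, 50, 74, 38, 7 and 4 with 20 RPM, 865, 863, 1156, 624, 231 and 131 at a log2 fold limit of 0.32, and 73, 79, 102, 62, 5 and 1 at 2-fold. With a pseudocount of 1 RPM 17 genes were lower in both. For l-lactate over both lines limma called 37 higher and 15 lower with a mean of at least 20 RPM, 2 higher with a pseudocount of 1 RPM and 1 higher when PACs in more than 1 gene were left out, against 0. Between lines 2376 genes were lower with a mean of at least 20 RPM, against 3589; fewer genes were tested.

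The pseudocounts of limma, the fit with no trend, the size factors in limma and the PAC of PTMAP2 added to PTMA were chosen after seeing the data. The planned count-model test and its normalization were not run. The deposited levels are scaled values, and the whole tags recovered from them were used for levels, folds and intervals but not for a count model. Leaving out a library leaves no residual degree of freedom, so no test was had without each library. The limma fit for l-lactate has line as a covariate and so compares the treatments within each line, over 2 pairs. The labels give no replicate numbers for any further block. Sites below 1 TPM were not analysed here.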
